A study of Homo sapiens with 8 samples.

Results

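The 38 genes described here code for proteins of the nucleolus and of ribosome biogenesis, and they were chosen by name, as the lines of the deposited table whose gene symbol is on a list of such genes. All 38 were found among the 55737 genes of the table, and all 38 passed the filter on low values that left 19393 genes for testing, which asked for 10 normalised counts or more on average across libraries. The libraries came from LNCaP, an established human prostate cancer line that was first grown from a lymph node metastasis. Cells received a control treatment, 40 µM OSMI-2, 0.5 µM AT7519 or both agents at once and were harvested 4 hours later, and each of these 4 groups had 2 libraries. OSMI-2 inhibits O-GlcNAc transferase (OGT), which attaches a single sugar to nuclear and cytosolic proteins, and AT7519 inhibits several cyclin-dependent kinases, among them CDK9, which releases paused RNA polymerase II. Doses follow the series design, whereas the treatment field of the sample labels gives the same figures in mM. What the control cells received is not given in the sources used here, 1 cell line was used throughout, and nothing in the labels says whether the replicates were separate cultures, so p-values rest on a spread between libraries that may be technical.

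Ribosomes are built in the nucleolus. RNA polymerase I copies the ribosomal DNA repeats into a long precursor RNA, box C/D and box H/ACA particles guide its ribose methylation and pseudouridylation, and large assemblies of processing factors cut and fold it into the small and large subunits. The genes of these factors are themselves transcribed by RNA polymerase II, many are known targets of the transcription factor MYC, and their output is often high in growing tumour cells. The 38 genes fall by role into 5 genes of RNA polymerase I and its factors, 6 of nucleolar scaffold proteins, chaperones and rRNA gene regulators, 4 of the box C/D particle, 4 of the box H/ACA particle, 8 of the small subunit and 11 of the large subunit.

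Between 60152710 and 154367238 reads were assigned to genes in a library, so the smallest library set a floor of 3 reads at 5.47 normalised counts, and every one of the 38 genes lay well above it in every library. All 10 markers of luminal prostate cells were above a mean of 10 normalised counts, with a summed level of 431224 to 532438, which checks the label of the line. The 3 leukocyte markers summed to 0.981 to 11.8, the 3 basal markers to 41.8 to 106 (only KRT14 above a mean of 10), the 4 fibroblast markers to 1844 to 3742 (COL1A1 and LUM) and the endothelial markers to 1132 to 1506 (VWF). Mitochondrially encoded mRNAs had a share of 6.57% to 7.73% in the 4 libraries treated with AT7519, alone or combined, and of 4.45% to 5.53% in the other 4. Changes are therefore relative, and the scale is that of the deposited values. In bulk RNA, fewer cells with a transcript and less RNA per cell cannot be told apart.

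Among the genes of RNA polymerase I, POLR1B stepped down from group to group. POLR1B, the gene of the second-largest subunit of the enzyme, stood at 6253 and 6801 normalised counts in the control libraries, 5143 and 4822 with OSMI-2, 3890 and 4284 with AT7519, and 2708 and 2582 with both agents. No group overlapped another, and on log2 values it fell by 0.39 with OSMI-2 (SE 0.0914, limma adjusted p = 0.0362), by 0.68 with AT7519 (SE 0.0914, adjusted p = 2.67e-05) and by 1.30 with the combination (SE 0.0914, adjusted p = 6.53e-08). POLR1A, the gene of the largest catalytic subunit, stood at 10784 and 11441 in control, 10710 and 10769 with OSMI-2, 7618 and 8995 with AT7519, and 9216 and 8673 with both agents. Its OSMI-2 libraries lay just below the lower control (log2 change -0.05, adjusted p = 0.843), and it fell by 0.42 with AT7519 (SE 0.0886, adjusted p = 0.00101) and by 0.31 with the combination (SE 0.0886, adjusted p = 0.00804), the latter lost without combination replicate 2 or control replicate 2.

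UBTF codes for the factor that binds and opens ribosomal DNA promoters. It stood at 9942 and 9902 in control, 9767 and 9933 with OSMI-2, 8985 and 7864 with AT7519, and 8594 and 9215 with both agents, and the control and OSMI-2 libraries overlapped. Its fall of 0.24 with AT7519 (SE 0.0838, adjusted p = 0.0265) was not called without either control library or without AT7519 replicate 2. RRN3, which tethers the polymerase to the promoter complex, stood at 10170 and 11279 in control, 9599 and 9535 with OSMI-2, 9716 and 9436 with AT7519, and 8636 and 8434 with both agents. Both combination libraries were below the other 6, and the call was a fall of 0.33 with the combination (SE 0.0786, adjusted p = 0.00272), while either agent alone gave -0.16 with adjusted p of 0.303 and 0.0988. TCOF1, the gene of the nucleolar protein treacle, stood at 6263 and 7048 in control, 4954 and 4256 with OSMI-2, 6683 and 8334 with AT7519, and 5746 and 5405 with both agents. It fell with OSMI-2 (log2 change -0.53, SE 0.112, adjusted p = 0.0243), and its AT7519 libraries overlapped the controls.

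The scaffold genes followed another course, lower with OSMI-2 and higher with AT7519. NCL codes for nucleolin, an abundant nucleolar RNA-binding protein. It stood at 130939 and 143913 in control, 97521 and 92278 with OSMI-2, 188423 and 173469 with AT7519, and 138987 and 131051 with both agents, so the combination libraries lay within the control range and between the single agents. NCL fell by 0.53 with OSMI-2 (SE 0.0749, adjusted p = 0.00547) and rose by 0.40 with AT7519 on the deposited scale (SE 0.0749, adjusted p = 0.000454), a rise that turned to -0.52 when libraries were scaled to equal mitochondrial mRNAs. NPM1 codes for nucleophosmin, which forms the granular outer layer of the nucleolus. It stood at 159742 and 178089 in control, 133395 and 119424 with OSMI-2, 262105 and 242601 with AT7519, and 208073 and 185059 with both agents. All 4 groups were apart, with changes of -0.42 with OSMI-2 (SE 0.0849, adjusted p = 0.0217) and 0.58 with AT7519 (SE 0.0849, adjusted p = 5.41e-05), the latter -0.34 on the mitochondrial scale. NPM1 has 45 pseudogenes by name, with which reads can be shared, and RRN3, NCL, LYAR, NOP56, NHP2, PES1 and NIP7 have 1 to 3 each.

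LYAR, a nucleolar zinc finger protein of pre-rRNA processing, was the exception among the scaffold and regulator genes. It stood at 2489 and 3135 in control, 1846 and 1773 with OSMI-2, 1929 and 2211 with AT7519, and 1312 and 1309 with both agents. Each treatment lay below both controls, with falls of 0.63 with OSMI-2 (SE 0.121, adjusted p = 0.0176), 0.44 with AT7519 (SE 0.121, adjusted p = 0.00735) and 1.09 with the combination (SE 0.121, adjusted p = 3.76e-06). The call with AT7519 was lost without AT7519 replicate 1 or without control replicate 2. NOLC1, a chaperone of box particles, had 31761 and 37173 in control, 27486 and 26395 with OSMI-2, 47875 and 49896 with AT7519, and 39022 and 40055 with both agents, the same order of groups as NPM1. DDX21, an RNA helicase of the nucleolus, and MYBBP1A, a nucleolar regulator, were also higher with AT7519 (0.24 and 0.34, adjusted p = 0.0222 and 0.00667), but both turned negative at equal totals (-0.10 and -0.01) and on the mitochondrial scale (-0.67 and -0.58), and DDX21 was not called without AT7519 replicate 1 or control replicate 1, nor MYBBP1A without AT7519 replicate 2.

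All 4 genes of the box C/D particle rose with AT7519 on the deposited scale, against 26% of all tested genes. FBL, the methyltransferase fibrillarin, stood at 28702 and 30808 in control, 25878 and 25386 with OSMI-2, 45121 and 48626 with AT7519, and 41434 and 40030 with both agents. The libraries with AT7519 formed an upper group, and FBL rose by 0.66 with AT7519 (SE 0.0717, adjusted p = 4.04e-06) and by 0.45 with the combination (SE 0.0717, adjusted p = 9.56e-05). NOP56, a core protein of the particle, stood at 21788 and 22444 in control, 16271 and 17682 with OSMI-2, 27580 and 33353 with AT7519, and 21862 and 21970 with both agents, where it was within the control range. It fell by 0.38 with OSMI-2 (SE 0.0879, adjusted p = 0.0334) and rose by 0.46 with AT7519 (SE 0.0879, adjusted p = 0.000547). NOP58, its partner in the particle, stood at 13315 and 14956 in control, 9970 and 9600 with OSMI-2, 21945 and 20970 with AT7519, and 15159 and 14265 with both agents. RRP9, which binds the U3 particle of pre-rRNA cleavage, stood at 4107 and 4885 in control, 3626 and 3465 with OSMI-2, 6902 and 7965 with AT7519, and 5519 and 5172 with both agents. Its rise with AT7519 was the largest of the 38 genes (log2 change 0.73, SE 0.103, adjusted p = 3.93e-05). On the mitochondrial scale all 4 box C/D genes were lower with AT7519 than in control, FBL by -0.26, NOP56 by -0.46, NOP58 by -0.31 and RRP9 by -0.19.

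In the box H/ACA particle all 4 genes fell with OSMI-2, against 2.38% of all tested genes. None of these 4 calls held without each library in turn. DKC1, the pseudouridine synthase dyskerin, stood at 11060 and 12224 in control, 9182 and 8711 with OSMI-2, 13483 and 12778 with AT7519, and 10580 and 10234 with both agents. It fell by 0.38 with OSMI-2 (SE 0.0798, adjusted p = 0.0242), and its AT7519 libraries were above both controls without a call (0.17, adjusted p = 0.0796). GAR1 stood at 6430 and 7242 in control, 4653 and 4530 with OSMI-2, 6937 and 6951 with AT7519, and 5442 and 4774 with both agents, so that its AT7519 libraries sat inside the control range and those with OSMI-2 below it. NHP2 and NOP10, the small subunits of the particle, were raised by AT7519 as the box C/D genes were on the deposited scale, by 0.61 and 0.63 (adjusted p = 1.41e-05 and 9.04e-06), and turned to -0.30 and -0.28 on the mitochondrial scale. NHP2 stood at 10831 and 11755 in control, 9172 and 8603 with OSMI-2, 17205 and 17263 with AT7519, and 14352 and 14983 with both agents.

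The small subunit genes, most of them factors of the processome that cuts the precursor, had 3 falls of 8 with OSMI-2 and 4 of 8 with AT7519. Over all tested genes the shares of falls were 2.38% and 27.2%, and none of the 3 calls with OSMI-2 held without each library in turn. WDR43 stood at 9861 and 12203 in control, 7483 and 7909 with OSMI-2, 8228 and 9187 with AT7519, and 5084 and 4453 with both agents. The combination libraries were at 5084 or below while every other library was at 7483 or above, and the fall with the combination was 1.21 (SE 0.107, adjusted p = 4.6e-07). UTP20, a scaffold of the processome, stood at 6690 and 7580 in control, 5010 and 5377 with OSMI-2, 5219 and 5776 with AT7519, and 4050 and 4306 with both agents. It was lower in each treated library than in either control, as were WDR75 and HEATR1, whose falls with AT7519 were 0.28 and 0.44 (adjusted p = 0.0182 and 0.0017), that of WDR75 lost without AT7519 replicate 1 or control replicate 2. BYSL, the gene of bystin, stood at 3158 and 3659 in control, 2696 and 2598 with OSMI-2, 3487 and 4091 with AT7519, and 2445 and 2280 with both agents. NOP14 fell with OSMI-2 (-0.36, adjusted p = 0.0234), while NAT10, an RNA acetyltransferase, and RRP12 were not called in any comparison with control, with changes between -0.23 and 0.14.

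The large subunit genes were mixed. NIP7 stood at 5110 and 5844 in control, 4143 and 4154 with OSMI-2, 8282 and 7689 with AT7519, and 4784 and 4070 with both agents, and it was the single gene of the 38 that rose with AT7519 (0.55, adjusted p = 0.000341) and fell with the combination (-0.31, adjusted p = 0.0171). That fall was lost without combination replicate 2 or control replicate 2, and the rise was -0.37 on the mitochondrial scale. RRS1, which helps load the 5S ribonucleoprotein, stood at 3492 and 4003 in control, 2764 and 2711 with OSMI-2, 3898 and 3345 with AT7519, and 2025 and 1711 with both agents. The AT7519 and control libraries overlapped, while both combination libraries were below the other 6. NOP16 stood at 5278 and 6446 in control, 3650 and 3985 with OSMI-2, 8051 and 9017 with AT7519, and 6009 and 6118 with both agents, where it overlapped the controls.

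PES1, BOP1 and WDR12 form one complex of large subunit maturation, and their mRNAs were not called alike. BOP1 stood at 1310 and 1326 in control, 979 and 930.0 with OSMI-2, 1953 and 1906 with AT7519, and 1761 and 1552 with both agents. PES1 rose with AT7519 (0.38, adjusted p = 0.00361), a call that was lost without control replicate 1, and WDR12 did not (0.01, adjusted p = 0.969). RRP1B stood at 7803 and 8877 in control, 6815 and 6353 with OSMI-2, 5852 and 5687 with AT7519, and 4656 and 4924 with both agents, an order like that of POLR1B. The methyltransferase gene NOP2 had 7302 and 8706 in control, 5480 and 6243 with OSMI-2, 6142 and 8160 with AT7519, and 4801 and 4335 with both agents. GNL3 (nucleostemin) and URB2 were called as falls with the combination (-0.34 and -0.60, adjusted p = 0.0035 and 0.00121) and with neither agent alone, that of GNL3 lost without combination replicate 2, and PPAN was not called anywhere. A protein-coding gene on the same strand overlaps NOP2, RRS1 and PPAN in the annotation, so their reads may be shared. Coding genes on the other strand overlap RRN3, MYBBP1A, NHP2, HEATR1, NOP16, WDR12, BOP1, PES1, GNL3 and NIP7. Whether reads were shared there depends on the strand setting of the counting, which is not given.

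**Figure D1:**
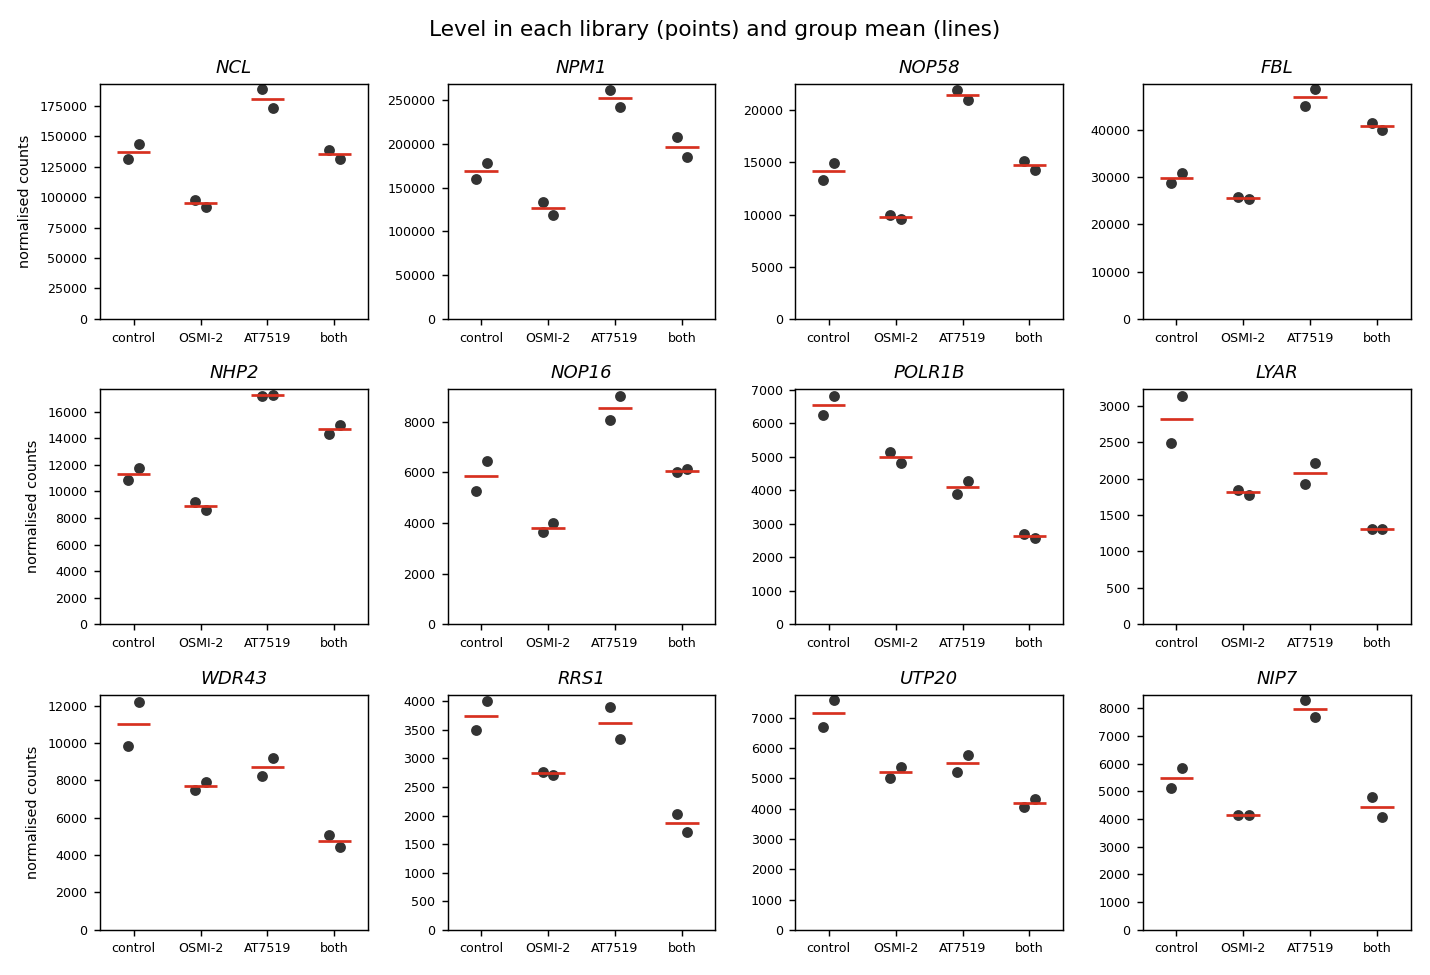
Level of 12 of the genes in each of the 8 libraries (points, normalised counts, axes starting at 0), with the mean of each group as a line. NCL, NPM1 and NOP58 were lowest with OSMI-2 and highest with AT7519, while POLR1B, LYAR and WDR43 were lowest with both agents.

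The question of the OSMI-2 against control comparison is the effect of OGT inhibition by itself. All 38 genes had a negative change, from -0.63 for LYAR to -0.01 for UBTF with a median of -0.36, where the median over all tested genes was -0.02. In 37 of the 38 (97.4%) both OSMI-2 libraries lay below both controls, against 30.1% of all tested genes, and the exception was UBTF. By limma 20 of the 38 (52.6%) fell, against 2.38% of all tested genes, and 0 rose, against 0.645%. Tested genes reach down to a mean of 10 normalised counts, whereas PPAN, the lowest of the 38, was at 374 or above in every library. In no comparison are the shares over all tested genes matched for level. At an unadjusted p below 0.05 there were 32 genes (84.2%), all lower, against 17.8% of all tested genes. On recovered reads edgeR and DESeq2 called 21 and 28 lower and 0 higher, whereas limma called 4 without the filter on low values and 0 without the variance trend, with 28 at an unadjusted p below 0.05. The largest falls after LYAR were those of NOP16 (log2 change -0.61, SE 0.103, adjusted p = 0.0105), GAR1 (-0.57, SE 0.0918, adjusted p = 0.00916), TCOF1 and NCL. The share that fell was 5 of 6 among scaffold and regulator genes and 4 of 4 in the box H/ACA particle, then 2 of 4 in the box C/D particle, 2 of 5 in RNA polymerase I, 3 of 8 in the small subunit and 4 of 11 in the large subunit.

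Single calls with OSMI-2 rested on single libraries. Without control replicate 2 or without OSMI-2 replicate 2 limma called 0 of the 38 genes, with 22 and 28 at an unadjusted p below 0.05, and all 38 changes were negative in both runs. The count was 12 when control replicate 1 was left out and 4 when OSMI-2 replicate 1 was, so none of the 20 calls held without each library in turn. On other scales the direction of the called genes did not turn, with 5 falls at equal totals, 6 at equal upper quartiles and 28 at equal mitochondrial mRNAs.

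The question of the AT7519 against control comparison is the effect of CDK inhibition by itself, and here the genes moved in both directions. On the deposited scale 15 of the 38 genes (39.5%) rose, against 26% of all tested genes, and 9 (23.7%) fell, against 27.2%. So the share of falls was near that of all genes, and the median change was 0.15. The box C/D particle had 4 rises of 4, the scaffold and regulator genes 5 of 6, the box H/ACA particle 2 of 4 and the large subunit 4 of 11, while RNA polymerase I and the small subunit had 0. The falls were 3 of 5 in RNA polymerase I, 4 of 8 in the small subunit, LYAR among the regulators and RRP1B in the large subunit. After RRP9 and FBL the largest rises were those of NOP10, NHP2 and NOP58 (0.60, SE 0.0798, adjusted p = 2.16e-05), and after POLR1B the largest falls were those of RRP1B (-0.53, SE 0.0884, adjusted p = 0.000169), HEATR1, LYAR and POLR1A.

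The direction of the rises depended on the scale. At equal mitochondrial mRNAs 37 of the 38 genes fell with AT7519 and 0 rose, with a median of -0.77 where that of all tested genes was -0.91, and at equal totals 16 fell and 6 rose, with medians of -0.20 and -0.34. On each of these scales the median of the 38 genes was thus above that of all genes. Of the 24 calls, 16 held without each library in turn, among them all 4 of the box C/D particle, NCL, NPM1, NOLC1, NHP2, NOP10, POLR1A and POLR1B, and the other 8 were lost without at least 1 of the AT7519 or control libraries. Without control replicate 2 the falls numbered 4.

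**Figure D2:**
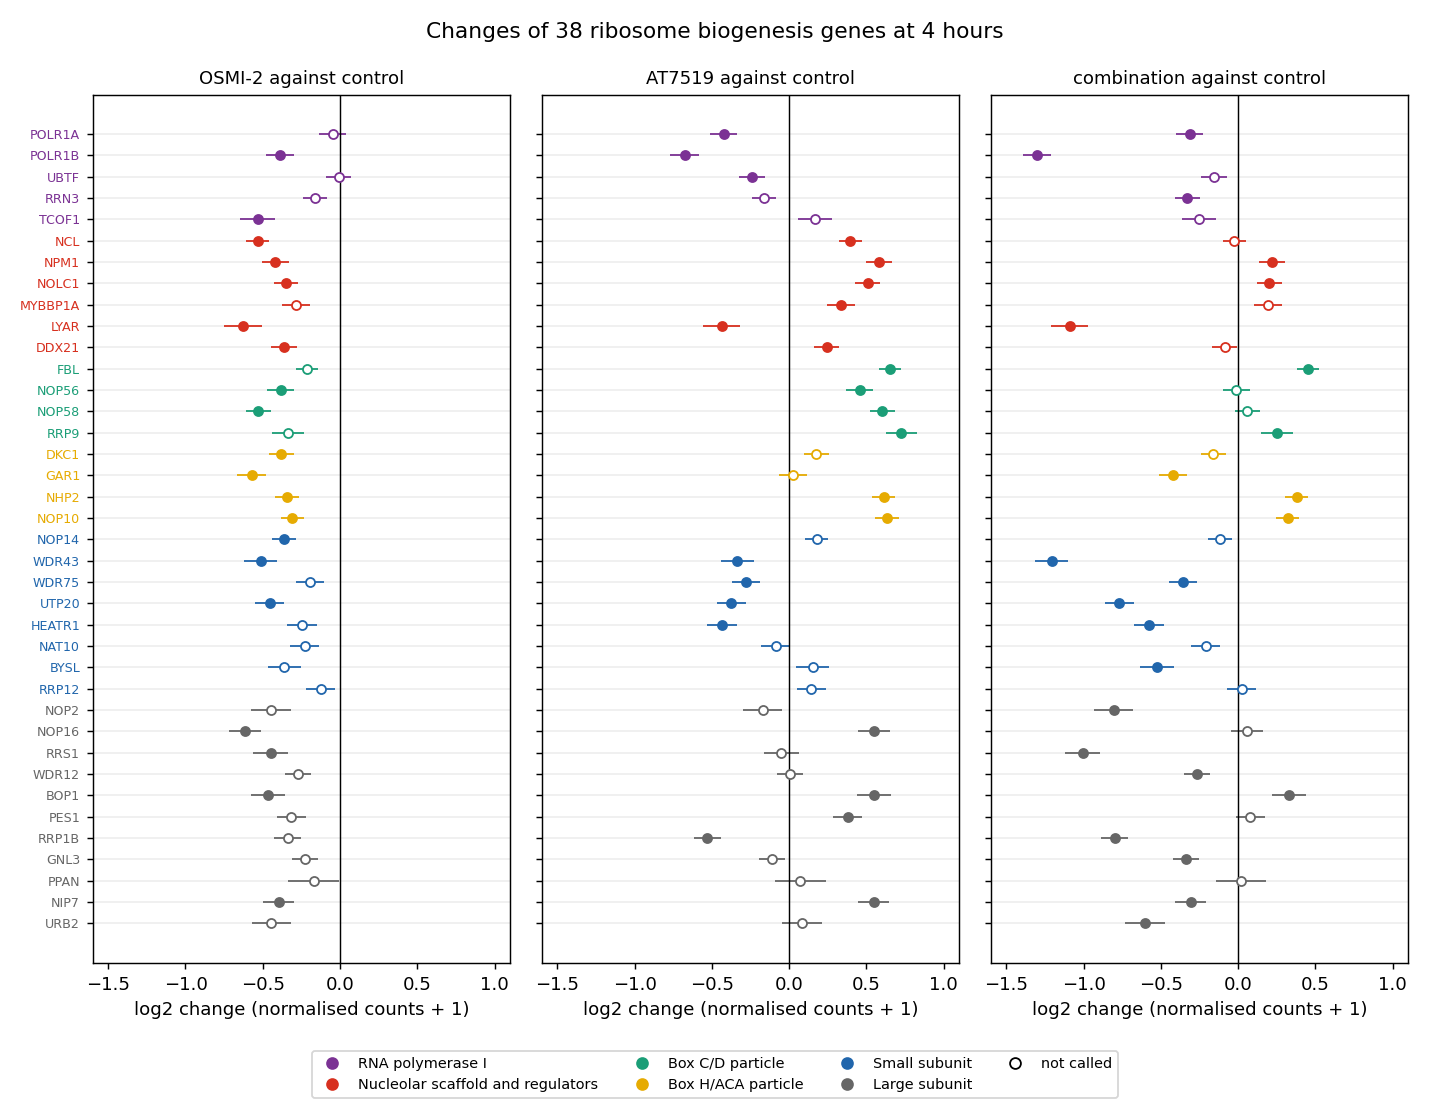
Log2 change of each of the 38 genes under each treatment (OSMI-2, AT7519, combination) against control, grouped by role. Points are limma estimates, bars are standard errors, and open points were not called; all points lie below 0 with OSMI-2, whereas with AT7519 the 4 box C/D genes lie above 0 and the called RNA polymerase I and small subunit genes below it on the deposited scale.

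With both agents together, most genes that fell with AT7519 were lower still, and on the deposited scale those that rose with it stood nearer to control, above or below it. At equal mitochondrial mRNAs the latter were farther below control with the combination than with AT7519, FBL at -0.53 and -0.26 and NPM1 at -0.76 and -0.34. Against control 17 of the 38 (44.7%) fell, against 27.6% of all tested genes, and 7 (18.4%) rose, against 26.3%, with a median of -0.19. The largest falls were those of POLR1B, WDR43, LYAR, RRS1 (-1.01, SE 0.114, adjusted p = 4.57e-06) and NOP2 (-0.81, SE 0.127, adjusted p = 9.6e-05). In fold terms POLR1B was 2.47-fold and WDR43 2.31-fold lower. The rises were those of FBL, NHP2 (0.38, SE 0.0768, adjusted p = 0.000784), BOP1 (0.33), NOP10 (0.32), RRP9 (0.25), NPM1 (0.22) and NOLC1 (0.20), and all 7 turned negative at equal mitochondrial mRNAs, where 38 of 38 genes fell. By role, falls were called in 3 of 5 genes of RNA polymerase I, 5 of 8 of the small subunit and 7 of 11 of the large subunit, and in 1 each of the scaffold and the box H/ACA genes.

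Of these 24 calls with the combination, 15 held without each library in turn, among them POLR1B, RRN3, LYAR, WDR43, UTP20, RRS1, NOP2, RRP1B, FBL, NHP2 and NOP10. The rises of NOLC1 and RRP9 were lost without either combination library, either OSMI-2 library or control replicate 1, that of NPM1 without combination replicate 1 or control replicate 1, and that of BOP1 without combination replicate 1 or either control. The rises numbered 3 without control replicate 1 and 3 without combination replicate 1, and at equal totals they numbered 1 and the falls 26.

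When OSMI-2 was added to AT7519, most of these genes fell. In the combination against AT7519, 26 of the 38 (68.4%) fell, against 12.5% of all tested genes, and 0 rose, against 7.21%. The median change was -0.32, 36 of 38 changes were negative with the exceptions POLR1A and UBTF, and in 31 (81.6%) both combination libraries lay below both AT7519 libraries, against 30.6% of all tested genes. At an unadjusted p below 0.05 there were 28 genes (73.7%), against 32.5% of all tested genes. On recovered reads edgeR and DESeq2 called 22 and 28 lower and 0 higher, and limma without the variance trend called 6 lower. The largest falls were those of RRS1 (-0.96, SE 0.114, adjusted p = 0.000146), WDR43 (-0.87, SE 0.107, adjusted p = 0.000179), NIP7 (-0.85, SE 0.0995, adjusted p = 0.000128), BYSL (-0.68, SE 0.108, adjusted p = 0.000821) and URB2 (-0.68, SE 0.129, adjusted p = 0.00259). All 4 box H/ACA genes fell again, with 3 of 4 in the box C/D particle, 5 of 6 among scaffold and regulator genes, 8 of 11 in the large subunit, 4 of 8 in the small subunit and 2 of 5 in RNA polymerase I.

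Of these 26 calls, 12 held without each library in turn, those of BYSL, LYAR, NCL, NIP7, NOP16, NOP2, NOP56, NOP58, POLR1B, RRS1, URB2 and WDR43. The count fell to 14 without combination replicate 2 and lay between 18 and 25 without each of the other 7 libraries. No called gene turned direction on another scale, with 19 falls at equal totals, 17 at equal upper quartiles and 23 at equal mitochondrial mRNAs.

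The change with OSMI-2 alone and the change with OSMI-2 on top of AT7519 rest on different libraries. The calls of both share each gene's spread, estimated from all 8 libraries, so a repeated call is not independent. Of the 20 genes that fell with OSMI-2 alone, 19 fell again in the combination against AT7519, which is also 19 of the 26 of that comparison, and the exception was BOP1 (-0.22, adjusted p = 0.18). Over all tested genes 397 of the 461 that fell with OSMI-2 fell again (86.1%, against 95% here), so the repeat of the calls is near that of all genes. Across the 38 genes, which are not independent replicates, the paired changes had Pearson r = 0.738 and Spearman rho = 0.799, and across all 19393 tested genes r = 0.351 and rho = 0.451. The change with AT7519 in the absence and presence of OSMI-2, also over separate libraries, had r = 0.919 across the 38 genes and 0.846 across all tested genes.

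**Figure D3:**
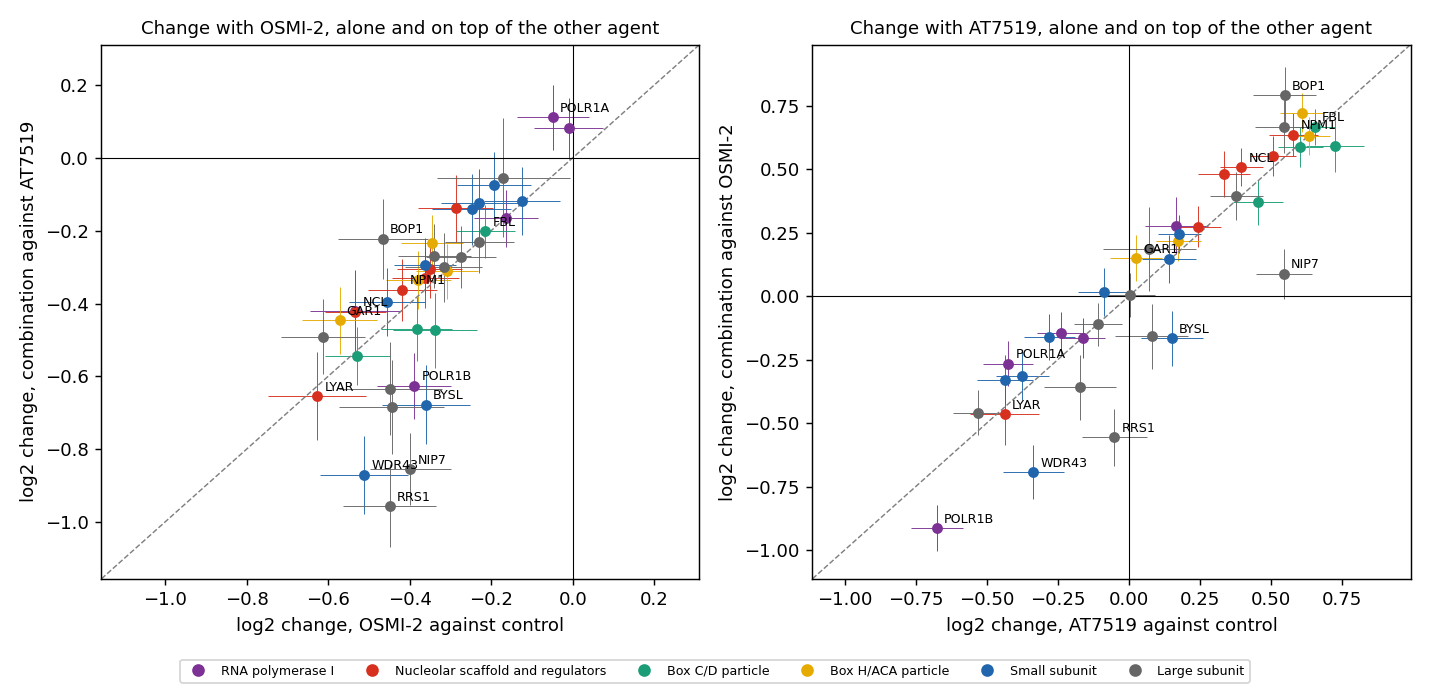
Log2 change of each of the 38 genes with 1 agent alone against control (horizontal) and with the same agent added to the other (vertical), for OSMI-2 on the left and AT7519 on the right. Points are coloured by role, bars are standard errors and the dashed line marks equal changes; on the left RRS1, WDR43 and NIP7 lie farthest below the line, and on the right the points follow it with r = 0.919.

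Whether the agents together did more than the sum of their single log2 changes is the interaction. By limma 0 of the 38 genes passed in either direction, against 1.04% of all tested genes. At an unadjusted p below 0.05 there were 3 genes, NIP7 (-0.46, SE 0.141, adjusted p = 0.185), RRS1 (-0.51, SE 0.161, adjusted p = 0.209) and WDR43 (-0.36, SE 0.151, adjusted p = 0.421), all lower with the combination than the sum would give. DESeq2 called 1 gene, NIP7, and edgeR 0. MYC itself, which is not among the 38, stood at 13649 and 15319 in control, 13380 and 13845 with OSMI-2, 15662 and 15943 with AT7519, and 9927 and 10353 with both agents. MYC fell with the combination against control (-0.51, SE 0.0783, adjusted p = 7.14e-05), not with either agent alone (-0.09 and 0.13, adjusted p = 0.636 and 0.186), and its interaction was -0.55 (SE 0.111, adjusted p = 0.03). The part of MYC in the changes of the 38 genes was not tested.

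Against OSMI-2 rather than control, the genes with AT7519 stood high. In AT7519 against OSMI-2, 24 of the 38 (63.2%) rose, against 28.7% of all tested genes, and 3 (7.89%) fell, against 29.4%, with a median of 0.53. NOP16 (1.16, SE 0.103, adjusted p = 4.18e-07), NOP58 (1.13), RRP9 (1.06), BOP1 (1.01) and NPM1 (0.998) differed most, and POLR1A (-0.38), POLR1B (-0.29) and UBTF (-0.23) were the 3 falls. At equal mitochondrial mRNAs this balance turned to 2 rises and 17 falls with a median of -0.26, above the -0.81 of all tested genes, and at equal totals it was 13 rises and 10 falls. Of the 27 calls 22 held without each library in turn, and UBTF was lost without either OSMI-2 library and POLR1B without AT7519 replicate 1 or OSMI-2 replicate 1.

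In the combination against OSMI-2, 17 of the 38 (44.7%) rose, against 27.5% of all tested genes, and 9 (23.7%) fell, against 27.3%. BOP1 (0.79, SE 0.11, adjusted p = 3.03e-05), NHP2 (0.72, SE 0.0768, adjusted p = 2.61e-06), NOP16 (0.67), FBL (0.67) and NPM1 (0.64) rose most, and these rises too were -0.06 to -0.22 at equal mitochondrial mRNAs. POLR1B (-0.91, SE 0.0914, adjusted p = 1.5e-06), WDR43 (-0.69, SE 0.107, adjusted p = 7.4e-05), RRS1 (-0.56), LYAR (-0.46) and RRP1B (-0.46) fell most. The 5 falls of POLR1B, WDR43, RRS1, LYAR and RRP1B were among the 18 of 26 calls that held without each library in turn, and the falls numbered 5 without OSMI-2 replicate 2.

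Over the 3 comparisons with control, the calls of the 38 genes took 12 different courses, the most common of them holding 6 genes. POLR1B, LYAR, WDR43 and UTP20 fell in all 3. NCL, DDX21, NOP56, NOP58 and NOP16 fell with OSMI-2, rose with AT7519 and were not called with the combination, and NPM1, NOLC1, NHP2, NOP10 and BOP1 did the same but stayed above control with the combination, on the deposited scale. RRN3, BYSL, NOP2, WDR12, GNL3 and URB2 were called against control as falls with the combination alone. Set against the single agents, the combination was lower for NOP2 against both (adjusted p = 0.00375 for AT7519 and 0.0275 for OSMI-2). BYSL, WDR12 and URB2 fell against AT7519 only, and RRN3 and GNL3 against neither. The call of WDR12 and that of NOP2 against OSMI-2 did not hold without each library in turn. None of these genes passed the interaction, which asks for more than the sum. POLR1A, WDR75, HEATR1 and RRP1B fell with AT7519 and with the combination. TCOF1, DKC1 and NOP14 fell with OSMI-2 alone, GAR1 and RRS1 with OSMI-2 and with the combination, FBL and RRP9 rose with AT7519 and with the combination, and MYBBP1A and PES1 rose with AT7519 alone. NIP7 and UBTF each had a course of their own, and NAT10, RRP12 and PPAN were not called. These 3 comparisons share the control libraries, and the courses are given as the calls of each. No call with OSMI-2 held without each library in turn, nor did 8 of the 24 with AT7519, among them LYAR and WDR43 (lost without AT7519 replicate 1 or control replicate 2) and UTP20 (lost without control replicate 2), nor 9 of the 24 with the combination.

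A wider list of 134 other ribosome biogenesis genes, all of them measured and tested, was counted in the same way. With OSMI-2, 29 of the 134 (21.6%) fell, against 2.38% of all tested genes, and 0 rose (median -0.27, 132 negative, 93 at an unadjusted p below 0.05). The falls numbered 33 in edgeR and 70 in DESeq2, 4 without the filter, 0 without the variance trend, 0 when control replicate 2 or OSMI-2 replicate 2 was left out, and 1 when OSMI-2 replicate 1 was. They were led by CD3EAP, a subunit of RNA polymerase I (-0.70, SE 0.142, adjusted p = 0.021), CCDC86 (-0.65), the small subunit factor LTV1 (-0.61) and BRIX1 of the large subunit (-0.55). With AT7519, 55 (41%) rose, against 26% of all tested genes, and 24 (17.9%) fell, against 27.2% (median 0.17), and at equal mitochondrial mRNAs 2 rose and 121 fell. In the combination against AT7519, 91 (67.9%) fell, against 12.5%, and 0 rose (median -0.35, 109 at an unadjusted p below 0.05, 78 falls in edgeR, 102 in DESeq2, 20 without the variance trend and 47 without combination replicate 2), led by SURF6 (-1.15, SE 0.133, adjusted p = 0.000128), UTP23 (-1.05, SE 0.127, adjusted p = 0.000158), ABT1 (-0.89) and CCDC86 (-0.87). Against control the combination gave 66 falls (49.3%, against 27.6%) and 21 rises (15.7%, against 26.3%).

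Large single changes of the wider list came with AT7519. DDX47, a helicase of the small subunit processome, stood at 152 and 95.2 normalised counts in control, 104 and 114 with OSMI-2, 1546 and 2184 with AT7519, and 1576 and 1505 with both agents. It rose 15.2-fold with AT7519 (log2 change 3.92, SE 0.215, adjusted p = 1.89e-08), and overlaps of the wider list with other genes were not looked up. TAF1D, a factor of the polymerase I promoter complex, rose by 1.42 (SE 0.0872, adjusted p = 4.5e-08) and WDR74 by 0.998. RPP25 (-1.34, SE 0.281, adjusted p = 0.00106) and POP1 (-1.13), proteins of the nucleases RNase MRP and RNase P, ZNHIT6 (-1.30), an assembly factor of the box C/D particle, and CD3EAP (-0.90) fell most. UTP23 was the single gene of the 134 whose interaction passed (-0.89, SE 0.179, adjusted p = 0.03), and it stood at 2840 and 3426 in control, 2754 and 2832 with OSMI-2, 1917 and 2126 with AT7519, and 1086 and 872 with both agents.

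The genes differ in length, and the change with AT7519 varied with it. Gene spans were read from GENCODE release 29 by symbol, and all 38 had an entry. The 15 genes that rose with AT7519 had a median span of 12 kb (1.465 to 37.95 kb), the 9 that fell 36.5 kb (16.59 to 106.5 kb), and the 14 without a call 20.2 kb (1.706 to 140.0 kb), so the ranges overlap. Across the 38 genes the log2 change with AT7519 and the log2 span had Pearson r = -0.477 and Spearman rho = -0.512, and across 12743 tested protein-coding genes r = -0.101 and rho = -0.194. For the change with OSMI-2 the values were 0.144 and 0.126 over the 38 genes, and for the combination against OSMI-2 they were -0.31 and -0.382. With AT7519 against control, exonic length gave -0.46 and -0.479 over the 38 genes, and exon number -0.396 and -0.484, so span does not stand out. Over the tested protein-coding genes these were -0.132 and -0.198 for exonic length and 0.112 and 0.0184 for exon number. These are descriptions across genes, which share libraries and are not independent, and span also moves with the number of exons (medians of 13, 21 and 15 in the same 3 sets).

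**Figure D4:**
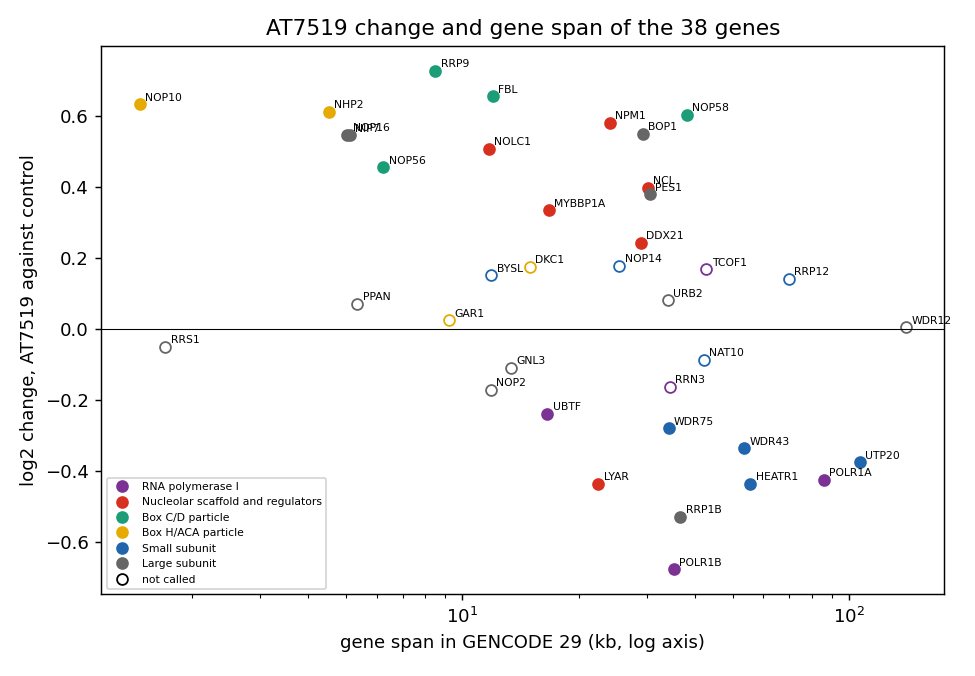
Log2 change with AT7519 against control (vertical) and gene span in kb on a log axis (horizontal) for the 38 genes, coloured by role, with open points for genes not called. Genes that rose had spans up to 37.95 kb, and genes that fell had spans from 16.59 kb.

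Promoter windows of 250 bases before to 50 after the gene start were taken from RefSeq (GRCh38.p14), and 30 of the 38 genes (78.9%) had an entry. That is under 80%, so a reading of motifs over the whole list is void, and the sequences are shown because the hexamer CACGTG, the E-box that MYC and its partner MAX can bind, lies near the start of genes called in opposite directions with AT7519. It reads the same on both strands and was present in 11 of the 30 windows. Its share was 28.2% in the 110 windows of the wider list, 10.1% in the 10475 windows of tested genes and 7.43% in all 27305 windows. NOP14, NAT10, BYSL and NOP2 carried it too and were not called with AT7519. FBL, RRP9, NOP10, MYBBP1A and PES1 rose with AT7519 on the deposited scale. The calls of MYBBP1A and PES1 did not hold without each library in turn, and their sequences are not printed. WDR43 and UTP20 fell in all 3 comparisons with control. Their falls with OSMI-2 and AT7519 did not hold without each library in turn, and those with the combination did. Each line below is read from 5′ to 3′ on the strand of the gene, with the hexamer in capitals.
FBL, chr19:39846356-39846385, minus strand, 7 bases after the start: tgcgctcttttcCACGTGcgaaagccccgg
RRP9, chr3:51941892-51941921, minus strand, 5 bases before the start: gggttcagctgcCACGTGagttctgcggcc
NOP10, chr15:34343130-34343159, minus strand, 11 bases before the start: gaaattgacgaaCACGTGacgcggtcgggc
NOP10, chr15:34343289-34343318, minus strand, 170 bases before the start: gtagggacactcCACGTGttttagcctgca
WDR43, chr2:28894658-28894687, plus strand, 4 bases after the start: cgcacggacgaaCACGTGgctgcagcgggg
UTP20, chr12:101280083-101280112, plus strand, 10 bases before the start: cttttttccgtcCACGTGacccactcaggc

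Genes with an entry were set side by side by the presence of the hexamer, as a description. With OSMI-2 the 11 genes with CACGTG had a median log2 change of -0.34 and 4 falls, and the 19 without it had -0.36 and 11 falls. In the combination against AT7519 the medians were -0.31 with 8 falls of 11 and -0.33 with 12 falls of 19. With AT7519 on the deposited scale they were 0.18, with 5 rises and 2 falls of 11, and 0.03, with 7 rises and 6 falls of 19. Changes of the 11 genes with the hexamer ran from -0.38 to 0.73. The shorter CANNTG, which includes CACGTG, was in 24 of the 30 windows (61% of windows of tested genes and 68.9% of all windows), and CCGGAA, the core of ETS factors, searched on both strands, in 14 (28.7% of windows of tested genes, 62.7% of those of the wider list and 17.6% of all windows). A match of letters is a description of these windows and shows no binding.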

How the data were processed

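RNA was measured by strand-specific TruSeq RNA sequencing, per the labels' protocols, in 8 LNCaP libraries. Each deposited value is a signal, taken here to be a gene's read count divided by its library's size factor. STAR, HTSeq, DESeq2, hg19 and GRCh37 are named in the submitters' processing notes. The sources used here do not give their versions and roles, the annotation, filters or strand setting. Dividing each column by its smallest step gave whole reads for 100% of values at a tolerance of 0.01, and 28 lines without a gene name were left out.

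The 38 genes, their roles, the wider list of 134 genes and the markers were chosen with earlier results of these data known. Values of the 19393 genes with a mean of at least 10 (99.971% of counts) were taken to log2 after adding 1. A limma model (3.58.1, R 4.3.3) of the 4 group means with a variance trend was fitted to all of them at once, with 4 residual and 10.1 prior degrees of freedom. Tests were two-sided, p-values were adjusted by Benjamini-Hochberg over all tested genes of a comparison, and an adjusted p below 0.05 was a call, the only basis for "rose" and "fell". The scripts were tested on simulated data. Changes are on the log2(value + 1) scale.

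Always named were NCL, NPM1, FBL, NOP56, DKC1, LYAR, POLR1A, POLR1B, UBTF and RRN3, with up to 5 called genes of largest rise and fall in each comparison, up to 4 from the wider list, and MYC. Other members were given after their values were seen. Of the wider list, some genes the rule gives were left out for brevity, as were OGT and CDK9. Alternatives were a pseudocount of 0.5, no filter, no variance trend, equal totals, upper quartiles or mitochondrial mRNAs (13 genes), edgeR 4.0.16 with its quasi-likelihood test and DESeq2 1.42.0 on recovered reads, the replicate number as a block, and each library left out. Replicates differed beyond counting error (chi-square per degree of freedom 20.8 to 32.7) and correlated at r = 0.9881 to 0.9938 across tested genes. Floors cover counting error only. GENCODE 29 gave spans and overlaps by symbol only, since the deposited counts use an older build.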

Additional observations from a re-analysis of the deposited data

How the results depend on the processing

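Each group had 2 libraries, so single calls are uncertain, and a relative measure ties directions with AT7519 to the scale. Leaving out each library in turn, the members called lower numbered 0 to 24 (OSMI-2 against control), 4 to 9 (AT7519 against control), 13 to 19 (combination against control), 14 to 25 (combination against AT7519), 5 to 9 (combination against OSMI-2) and 1 to 3 (AT7519 against OSMI-2). Those called higher numbered 13 to 16, 3 to 8, 13 to 17 and 22 to 24 in AT7519 against control, combination against control, combination against OSMI-2 and AT7519 against OSMI-2. The median changes kept their sign in these runs for all 6 comparisons of 2 groups.

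Limma without the variance trend called 0 falls with OSMI-2 (28 members at an unadjusted p below 0.05), 4 rises with the combination, and falls of 6 members against AT7519 and 5 against OSMI-2 in the combination and 1 in AT7519 against OSMI-2. Without the filter, 4 falls with OSMI-2 and 4 rises with the combination were called. DESeq2 gave 4 rises with the combination and 1 interaction. Equal upper quartiles gave 6 falls with OSMI-2 and 17 in the combination against AT7519. The replicate numbers did not pair the libraries (correlations of deviations 0.0207 to 0.123), and a replicate block gave 22 falls with OSMI-2, 9 with AT7519, 17 with both agents and 26 in the combination against AT7519, and changed no call count by over 1.5 times.

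Equal totals gave falls and rises of 5 and 0 (OSMI-2 against control), 16 and 6 (AT7519 against control), 26 and 1 (combination against control), 18 and 9 (combination against OSMI-2) and 10 and 13 (AT7519 against OSMI-2). The medians turned to -0.20 in AT7519 against control and -0.18 in the combination against OSMI-2. Equal mitochondrial mRNAs gave 37 and 0, 38 and 0, 31 and 0, and 17 and 2 in the last 4 of these comparisons, with medians turned to -0.77 (AT7519 against control), -0.70 (combination against OSMI-2) and -0.26 (AT7519 against OSMI-2). The scale itself sets these shifts, since the median tested gene moved by -0.91 with AT7519 on the mitochondrial scale and by -0.34 at equal totals.

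Called members whose change turned at equal totals were MYBBP1A -0.009 and DDX21 -0.10 with AT7519, NPM1 -0.041, NOLC1 -0.057 and RRP9 -0.005 with the combination, TCOF1 -0.055, DDX21 -0.059, DKC1 -0.12 and NOP14 -0.089 in the combination against OSMI-2, and RRP12 -0.15, RRS1 -0.019 and WDR12 -0.14 in AT7519 against OSMI-2. At equal mitochondrial mRNAs those with AT7519 against control were NCL -0.52, NPM1 -0.34, NOLC1 -0.41, MYBBP1A -0.58, DDX21 -0.67, FBL -0.26, NOP56 -0.46, NOP58 -0.31, RRP9 -0.19, NHP2 -0.30, NOP10 -0.28, NOP16 -0.37, BOP1 -0.37, PES1 -0.54 and NIP7 -0.37. With the combination against control they were NPM1 -0.76, NOLC1 -0.78, FBL -0.53, RRP9 -0.72, NHP2 -0.60, NOP10 -0.66 and BOP1 -0.65. In the combination against OSMI-2 they were TCOF1 -0.57, NCL -0.34, NPM1 -0.22, NOLC1 -0.30, MYBBP1A -0.37, DDX21 -0.58, FBL -0.18, NOP56 -0.48, NOP58 -0.27, RRP9 -0.26, DKC1 -0.64, NHP2 -0.13, NOP10 -0.22, NOP14 -0.61, NOP16 -0.18, BOP1 -0.060 and PES1 -0.46. In AT7519 against OSMI-2 they were TCOF1 -0.090, MYBBP1A -0.17, DDX21 -0.19, DKC1 -0.24, GAR1 -0.19, NOP14 -0.25, BYSL -0.28, RRP12 -0.53, RRS1 -0.39, WDR12 -0.51, PES1 -0.096 and URB2 -0.27.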

Other observations

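Several of the 38 genes hold small nucleolar RNA (snoRNA) genes, the guides of the particles that other members build, within their span on the same strand. By GENCODE 29, 7 of the genes hold at least 1, and 12 such snoRNAs in 6 hosts passed the filter on low values. With AT7519, 10 of the 12 rose and 1 fell by limma, against 26% and 27.2% of all tested genes, and with the combination 11 rose, against 26.3%. At equal mitochondrial mRNAs 8 rose with AT7519 and 9 with the combination. The filter used the mean over all 8 libraries. SNORD11B, SNORD53, SNORD70, SNORD82 and SNORD105 were below 10 in every library without AT7519 and passed only through the libraries with it. In the libraries without AT7519, SNORD19B stood at 5.88, 6.41, 16.7 and 9.11 and SNORD56 at 8.23, 10.1, 9.81 and 12.4, so both were near the filter. These counts of rises therefore cannot be read against the shares of all tested genes. With OSMI-2, 0 of the 12 were called in either direction by limma, edgeR or DESeq2, with 1 at an unadjusted p below 0.05 in limma, where 2.38% of all tested genes fell and 0.645% rose, so a count of 0 in 12 is what those shares would give. SNORD19, within the nucleostemin gene GNL3, stood at 172 and 196 normalised counts in control, 200 and 222 with OSMI-2, 837 and 1196 with AT7519, and 1047 and 791 with both agents. Its host GNL3 stood at 30221 and 32857 in control and 29478 and 28998 with AT7519, and was not called there (-0.11, adjusted p = 0.302). SNORD69, in the same gene, stood at 35.3 and 39.4 in control and 311 and 455 with AT7519.

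SNORD53, within WDR43, stood at 1.76 and 3.66 in control, 0.981 and 5.8 with OSMI-2, 151 and 288 with AT7519, and 112 and 76.6 with both agents, so the libraries without AT7519 were near the floor of 3 reads. Its host WDR43 fell with AT7519 (-0.34, adjusted p = 0.0161), a call lost without AT7519 replicate 1 or control replicate 2. SNORA75, within the nucleolin gene NCL, stood at 31.2 and 43.0 in control and 109 and 224 with AT7519, and NCL rose. The fall was that of SNORD56 in NOP56, at 8.23 and 10.1 in control, 1.27 and 1.02 with AT7519, and 17.4 and 27.4 with both agents, all low counts. Reads of the snoRNA and of the unspliced host transcript cannot be told apart in these counts.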
